A study of Homo sapiens with 32 samples.

Results

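Glycolysis breaks glucose down to pyruvate in the cytosol, and the pentose phosphate pathway branches off glucose 6-phosphate to make NADPH and ribose sugars. Pyruvate is turned into lactate by lactate dehydrogenase, or it enters mitochondria and is made into citrate, the substrate from which ATP-citrate lyase (ACLY) produces cytosolic acetyl-CoA. In monocytes and macrophages these pathways are known for the rise in glycolysis that follows activation by bacterial lipopolysaccharide (LPS).

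The 32 genes described here are enzymes, transporters and kinases of these pathways, chosen by symbol. All 32 were found, and 28 of them reached a mean normalized count of at least 10 over the 32 libraries, out of 12406 genes that did so among 60107 genes in the tables. The remaining 4, SLC2A3, HK3, PFKM and ENO2, were below that level and entered no test.

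The data are 3′ mRNA sequencing counts of human THP-1 cells, an established monocytic leukaemia line, in 8 groups of 4 libraries. All cells carried an ACLY knockout: KO cells had the knockout alone, and the WT, H760A (HA) and S455A (SA) lines were KO cells given wild type ACLY, a catalytically inactive mutant or a mutant that cannot be phosphorylated at serine 455. The added coding sequences were delivered by a lentiviral vector with an EF promoter and puromycin selection, and the labels name a single line for each genotype. Each line was left unstimulated or was treated with LPS at 100 ng/ml for 3 h per the labels. Nothing in the labels says that the 4 libraries of a group came from separate cultures, so p-values measure the spread between libraries, which may be technical, and not the spread between independently made lines.

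Between 6504099 and 14750815 reads were assigned per library (median 10247620), and the values below are reads on 1 scale shared by all 32 libraries. The defining monocytic markers LYZ and TYROBP were present in all libraries at means of 11725 and 6129. The T cell markers CD3E and CD3G were at 0 in all 32, and the epithelial marker EPCAM had a mean of 0.0598. The B cell markers MS4A1 and CD79A had means of 0.229 and 1.72. ACLY itself gave 119, 103, 92.003 and 98.5 in WT and 98.8, 108, 83.6 and 68.1 in KO without LPS, with overlap. After LPS it gave 118, 98.5, 126 and 103 in WT and 61.2, 65.7, 75.3 and 89.5 in HA, where all HA values were below all WT values (-0.61 on the log2 scale, limma adjusted p = 0.27). A tag at the 3′ end of the native transcript need not report either the knockout or the added coding sequence. Library 1 of LPS-treated SA cells stood far from the other 31, with GAPDH at 85728 against 12424 to 14717 in the rest of its group, and SA results after LPS that changed without it are marked. This library also entered the estimate of spread shared by all comparisons, those without SA cells included.

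None of the 28 genes passed an adjusted p of 0.01 in any of 15 comparisons in limma, which tested log2(normalized count + 1) across all 12406 genes with Benjamini-Hochberg adjustment. Of all genes, 2.90% were called for KO against WT, 3.47% for KO against WT after LPS, 2.52% for HA against WT and 2.02% after LPS. For SA against WT 0% were called in either state, and for KO against HA 0.226% and 0.00806% after LPS. The LPS response called 0.250% in WT, 0.572% in KO, 0.403% in HA and 0.492% in SA, and its difference from WT 0.00806% in KO and 0% in HA and SA. The clearest difference was in LDHB, the B subunit of lactate dehydrogenase: on the shared scale its level in KO and in HA was about 0.80 times that in WT, in both states, with no overlap between libraries. The size in HA depended on the scale: on the values as deposited, scaled separately for each line, it was -0.17 in log2 units before LPS. SLC16A3, which encodes the lactate exporter MCT4, was lower after LPS in KO than in WT. In HA, the glucose transporter gene SLC2A1, LDHA and RPE were lower than in every WT library before stimulation, none of them past the threshold. No gene of the list was called for a response to LPS in any line. In bulk RNA a lower level per cell and fewer cells that express a gene cannot be told apart.

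WT and KO libraries of the same replicate number deviated from their group means together, in every pair and in both states. Some libraries of different numbers did so more strongly than the weakest of these pairs. KO was therefore also compared with WT within these pairs, by adding the replicate number as a blocking term among the WT and KO libraries, and the blocked value is given wherever it changed a call.

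The 4 promoter stretches shown here belong to genes whose unstimulated HA libraries all lay below all WT libraries, as 5 of the 28 did (17.9%, beside 17.6% of all genes whose libraries did not overlap in either direction). Each is the 250 bases before the transcription start in RefSeq (GRCh38.p14), written 5′ to 3′ on the gene's strand; SLC16A1, the remaining gene of that kind, had no entry. Capitals mark the hypoxia response element cores ACGTG and GCGTG on either strand (as CACGT and CACGC on the other strand), and overlapping matches such as those in CACGTG were counted separately.
SLC2A1 (chr1:42958869-42959118, minus strand): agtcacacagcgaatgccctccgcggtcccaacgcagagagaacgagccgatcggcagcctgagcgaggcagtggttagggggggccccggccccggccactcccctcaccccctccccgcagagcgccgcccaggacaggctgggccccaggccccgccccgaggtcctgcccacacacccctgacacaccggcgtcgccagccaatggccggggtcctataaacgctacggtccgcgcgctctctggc
LDHA (chr11:18394313-18394562, plus strand): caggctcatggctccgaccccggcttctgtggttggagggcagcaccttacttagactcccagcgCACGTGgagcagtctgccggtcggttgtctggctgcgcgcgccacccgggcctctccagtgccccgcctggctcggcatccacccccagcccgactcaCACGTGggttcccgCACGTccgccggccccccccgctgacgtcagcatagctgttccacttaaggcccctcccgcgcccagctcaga
LDHB (chr12:21657843-21658092, minus strand): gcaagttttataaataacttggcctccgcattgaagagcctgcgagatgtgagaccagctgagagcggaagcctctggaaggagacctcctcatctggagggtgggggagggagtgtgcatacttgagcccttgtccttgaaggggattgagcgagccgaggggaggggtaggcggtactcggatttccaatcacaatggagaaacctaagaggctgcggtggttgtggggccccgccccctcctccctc
RPE (chr2:210002388-210002637, plus strand): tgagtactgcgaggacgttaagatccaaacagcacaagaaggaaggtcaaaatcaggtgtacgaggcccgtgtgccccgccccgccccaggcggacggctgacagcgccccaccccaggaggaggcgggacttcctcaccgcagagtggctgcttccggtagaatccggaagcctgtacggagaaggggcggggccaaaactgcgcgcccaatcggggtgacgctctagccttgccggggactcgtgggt
The LDHA stretch held 5 matches and the other 3 held 0. Of the 47 RefSeq starts of 27 genes on the list, 57.4% had at least 1 match, against 55.9% of 13431 starts of all tested genes and 43.2% of all 35116 starts. At least 5 matches were found at 2.08% of the starts of tested genes. A match is a description of these letters and says nothing of binding.

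Levels spanned 3 orders of magnitude. As 3′ tags do not grow in number with transcript length, levels of different genes can be set side by side on this scale, apart from differences in how well each 3′ end was captured. Genes with near-identical copies or pseudogenes, as PGAM1 and GAPDH have, are less certain in this order. In unstimulated WT cells GAPDH (18891 ± 6605, SD, n = 4) and ENO1 (14373 ± 482) were highest and overlapped. LDHB (7649 ± 469.8), PKM (7411 ± 1299) and ALDOA (6237 ± 922) followed, each overlapping the next. At the low end PGAM1 (25.2 ± 14.6) and PFKFB4 (22.04 ± 11.5) overlapped too. In the order of the 28 WT means there were only 4 places where neighbouring genes did not overlap: after ENO1, after ALDOA, after SLC2A1 and after PFKFB3. Among hexokinases, aldolases and enolases 1 form dominated: HK1 was above HK2, ALDOA above ALDOC, and ENO1 above ENO2. PFKP was above PFKL by less, at a read ratio of 2.05 ± 0.247 (SD, n = 4). All 32 listed genes together took 0.716% to 1.496% of a library's reads, or 0.716% to 1.09% without library 1 of LPS-treated SA cells.

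**Figure D1:**
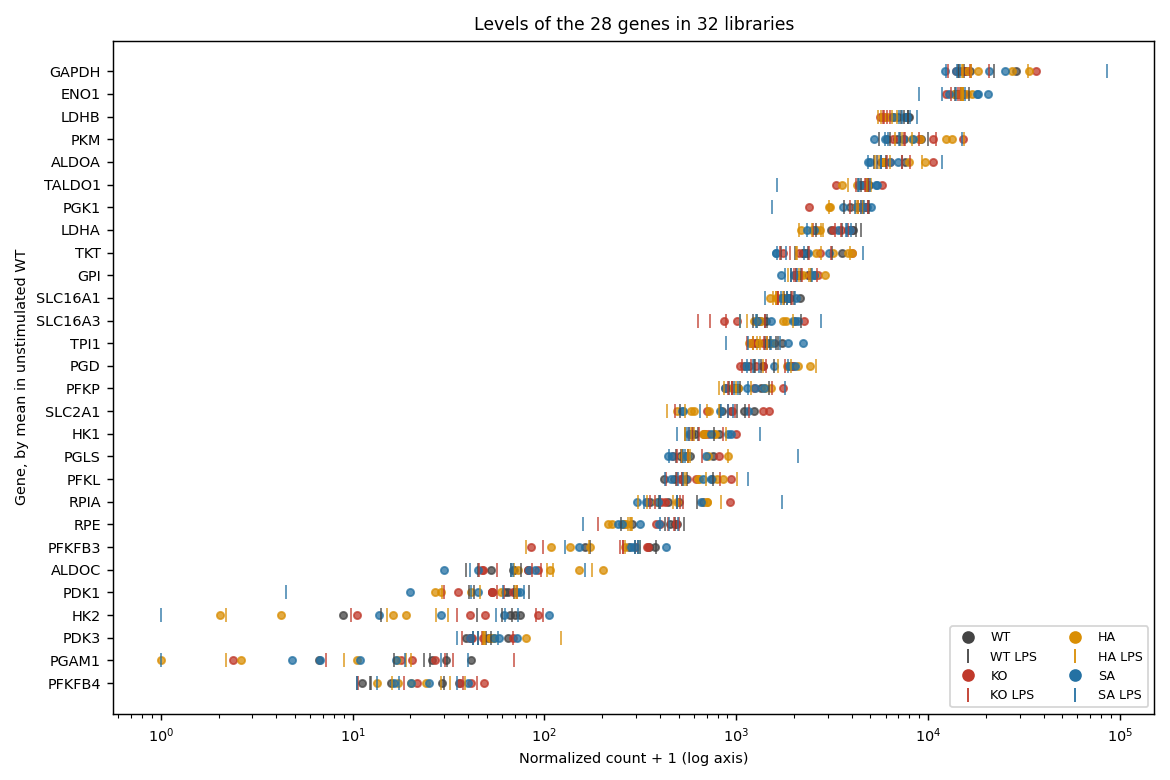
Normalized count + 1 (log axis) of the 28 genes in all 32 libraries, ordered by their mean in unstimulated WT; dots are unstimulated libraries, ticks are LPS-treated libraries and colours are lines. GAPDH and ENO1 lie at the top, and the widest spreads belong to HK2 and PGAM1, which reached 0 in at least 1 library.

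The spread of single libraries within groups was set beside the spread of the 8 group means. Because a mean of 4 libraries varies less than 1 library, the first is usually larger even where groups do not differ. In 27 of the 28 (96.4%) the within-group SD on the log2 scale exceeded the SD of the 8 group means, as it did in 87.6% of all genes tested. LDHB was the exception, with a within-group SD of 0.11 and an SD of group means of 0.17. The medians over the 28 genes were 0.41 within groups and 0.17 between group means, beside 0.42 and 0.26 over all genes.

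The first step is uptake of glucose. SLC2A1 encodes GLUT1, the widespread glucose transporter, and lies on the minus strand at chr1:42925353-42958893 (GRCh38). Unstimulated libraries gave 1099, 1242, 842 and 933 in WT, 1373, 1488, 706 and 951 in KO, 489, 602, 577 and 721 in HA and 528, 826, 1149 and 523 in SA. After LPS they gave 1005, 1105, 505 and 821 in WT, 985, 1160.3, 476 and 901 in KO, 434, 811, 538 and 699.8 in HA and 643, 903, 963 and 829 in SA. Without LPS the 4 HA values were below all WT values, and only 1 KO value (706) lay under the highest HA value (721). HA differed from WT by -0.78 on the log2 scale (95% interval -1.37 to -0.19, limma adjusted p = 0.097), and KO exceeded HA by 0.87 (adjusted p = 0.26). KO and WT differed by 0.09 with an interval of -0.50 to 0.68, and after LPS the difference between HA and WT was -0.45 (-1.04 to 0.14), with overlapping libraries. SLC2A3, which encodes GLUT3, was at a mean of 8.93 and was not tested.

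Hexokinases trap glucose as glucose 6-phosphate. HK1 gave 578, 606, 817 and 582 in WT, 709, 682, 991 and 679 in KO, 761, 778, 685 and 669.8 in HA and 934, 738, 564 and 906 in SA without LPS, and 595, 539.9, 767 and 632 in WT, 567, 637, 852 and 584 in KO, 879, 601, 579.5 and 538 in HA and 1321, 488, 551 and 563 in SA with it. Library 3 was the highest of its group in WT and KO in both states, and every comparison of lines overlapped. HK2, the inducible hexokinase, gave 65.3, 73.9, 7.95 and 69.2 in WT, 48.1, 91.3, 9.59 and 40.1 in KO, 1.03, 3.24, 17.9 and 15.2 in HA and 12.7, 60.7, 104 and 27.7 in SA in unstimulated cells. With LPS it gave 59.2, 66.8, 13.1 and 43.4 in WT, 89.01, 97.7, 8.77 and 34.1 in KO, 1.18, 30.6, 14.1 and 26.1 in HA and 0, 71.6, 61.2 and 54.6 in SA. In each group some libraries were several times below the rest, and in HA all 4 were low. The difference between HA and WT was -2.55 before LPS, with an interval of -4.88 to -0.22 (adjusted p = 0.16) and -1.63 after LPS (-3.96 to 0.71). One WT library at 7.95 lay within the HA values, which ran from 1.03 to 17.9. HK3 had a mean of 2.03.

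GPI interconverts glucose 6-phosphate and fructose 6-phosphate, and it was among the steadiest genes of the list. It gave 2366, 2129, 2407 and 2040.5 in WT, 2421, 2106, 2669.9 and 2008 in KO, 2583, 2893, 2219 and 2159 in HA and 2556, 2003, 1716 and 2538 in SA without LPS and 2176, 2036, 2447 and 1925 in WT, 1989.6, 2058, 2636 and 2190.3 in KO, 2453, 2116, 2389 and 1853 in HA and 2479.7, 1924, 1804 and 2063 in SA with it. All comparisons of lines overlapped, and its intervals lay within 0.5 on the log2 scale for KO against WT (-0.26 to 0.33 and -0.25 to 0.34 after LPS) and HA against WT (-0.16 to 0.43 and -0.26 to 0.33).

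Phosphofructokinase commits sugar to glycolysis. The platelet form PFKP gave 965, 1023, 1348 and 995 in WT, 1231, 867, 1757 and 884 in KO, 1416, 1516, 1023 and 947 in HA and 1386, 1132, 870.3 and 1248 in SA before LPS, and 955, 914, 1480.4 and 1045 in WT, 945, 903, 1544 and 952 in KO, 1199, 864, 994 and 816 in HA and 1796, 1016, 1153 and 973 in SA after it. The liver form PFKL gave 473, 518, 751 and 417 in WT, 612, 551, 943 and 507 in KO, 855, 797, 634 and 637 in HA and 737, 548, 458 and 667 in SA before LPS, and 551, 485, 759 and 521 in WT, 427, 519.9, 818 and 492 in KO, 1013, 532, 696 and 547 in HA and 1144, 425, 526 and 494 in SA after it. Both forms overlapped in every comparison. The difference in PFKL between HA and WT was 0.46 (-0.10 to 1.01, adjusted p = 0.29). The ratio of PFKP to PFKL reads, which does not depend on the scale, was 2.05 ± 0.247 in unstimulated WT and 1.66 ± 0.174 in HA, and 1.89 ± 0.118 and 1.43 ± 0.185 after LPS (SD, n = 4). In LPS-treated cells the HA ratios of 1.18 to 1.62 lay below the WT ratios of 1.73 to 2.01; this ratio was not tested. The muscle form PFKM had a mean of 2.88.

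PFKFB3 and PFKFB4 make and degrade fructose 2,6-bisphosphate, the activator of phosphofructokinase. PFKFB3 gave 376, 349.8, 161 and 276 in WT, 341, 345, 83.6 and 299 in KO, 135, 107, 171 and 262 in HA and 149.7, 430.1, 291 and 282 in SA without LPS, and 305, 382, 172 and 296 in WT, 248, 256, 97.8 and 257 in KO, 78.8, 315, 169 and 262 in HA and 127, 294, 313 and 307 in SA with it. Its libraries overlapped in all comparisons, with HA against WT at -0.79 (-1.74 to 0.16). After LPS it was lower in KO than in WT in all 4 same-numbered pairs, at ratios of 0.567 to 0.870, which did not pass with the pairing (adjusted p = 0.046). PFKFB4, near the lower limit of what was tested, gave 10.2, 34.8, 14.8 and 28.4 in WT, 40.3, 47.2, 20.6 and 35.5 in KO, 12.4, 16.2, 19.1 and 23.2 in HA and 24.1, 15.4, 39.2 and 19.1 in SA in unstimulated cells and 28.8, 11.4, 9.51 and 11.3 in WT, 9.62, 43.4, 17.5 and 36.5 in KO, 37.6, 31.4, 15.1 and 27.8 in HA and 34.05, 12.4, 16.5 and 9.54 in SA in treated ones. KO exceeded WT by 0.77 (-0.20 to 1.74) before LPS and by 0.70 (-0.27 to 1.66) after it, and HA exceeded WT by 0.90 (-0.07 to 1.87) after LPS. None of these passed, and all overlapped.

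Aldolase and triose phosphate isomerase complete the upper part of the pathway. ALDOA gave 5799, 5825, 7618 and 5707 in WT, 6333, 5853, 10651 and 5883 in KO, 9634, 7924, 5872 and 5884 in HA and 6947, 4951, 4863 and 6295 in SA before LPS, and 6004, 5394, 7285 and 5210.1 in WT, 5656, 7295, 8063 and 6116 in KO, 9289, 5267, 6322 and 5579 in HA and 11827, 5693, 4861 and 5672 in SA after it. ALDOC, the brain form, gave 68.2, 51.8, 80.6 and 67.5 in WT, 46.8, 46.2, 80.9 and 91.4 in KO, 202, 106, 71.8 and 150.2 in HA and 88.8, 28.97, 44.2 and 82.3 in SA before LPS, and 37.9, 43.97, 74.9 and 65.9 in WT, 44.5, 55.5, 85.2 and 94.5 in KO, 176, 110.5, 68.3 and 103 in HA and 161, 39.7, 65.9 and 67.6 in SA after it. ALDOC was on average higher in HA than in WT, by 0.89 (0.06 to 1.71, adjusted p = 0.17) and by 1.00 after LPS (0.17 to 1.82, adjusted p = 0.19), with overlap in both states. TPI1 gave 1495, 1265, 1287 and 1737 in WT, 1226, 1373, 1199 and 1408 in KO, 1462, 1313, 1166 and 1508 in HA and 1567, 1862, 1445 and 2218 in SA without LPS, and 1414, 1618, 1495 and 1656 in WT, 1451, 1139.8, 1221 and 1400.1 in KO, 1216, 1281, 1322 and 1450.05 in HA and 884, 1149, 1523 and 1687 in SA with it. Its unadjusted p was under 0.05 for LPS in SA, at -0.46 (adjusted p = 0.28), and for the difference of that response from the one in WT, at -0.57 (adjusted p = 1.00). The change with LPS in SA became -0.29 without the library that stood apart.

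Lower glycolysis holds the most abundant transcripts of the list. GAPDH, which oxidises glyceraldehyde 3-phosphate, gave 14595, 16524, 28728 and 15717 in WT, 15372, 13984, 36639 and 15411 in KO, 33611, 27472, 16188 and 18134 in HA and 25286, 13921, 12255 and 20832 in SA in unstimulated cells. After LPS it gave 14409, 14402, 22049.9 and 15417 in WT, 12746, 16671, 20742 and 16585 in KO, 32984, 15124, 16667 and 15008 in HA and 85728, 14101, 12424 and 14717 in SA. In most groups 1 or 2 libraries were far above the rest, and no comparison of lines separated the groups: its differences from WT were 0.04 in KO, 0.33 in HA and -0.07 in SA (interval -0.95 to 0.81). Reads of GAPDH can also come from its many processed pseudogenes.

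PGK1, the next enzyme and the first to yield ATP, gave 4767, 4435, 3906 and 4586 in WT, 4697, 4754, 2386 and 4200.1 in KO, 3056, 3087, 4247 and 4278 in HA and 3602, 5041, 4239.7 and 4818 in SA without LPS. With LPS it gave 4841, 4935, 3662 and 4597 in WT, 4316, 4846, 3928 and 4459 in KO, 3028, 4222, 4553 and 4295 in HA and 1540.4, 4155, 4457 and 4641 in SA. Here the libraries that were highest in GAPDH were the lowest ones. PGAM1, phosphoglycerate mutase, was among the scarcest genes of the list, at 40.6, 29.7, 5.68 and 24.9 in WT, 19.5, 25.8, 1.37 and 16.8 in KO, 0, 1.62, 9.57 and 16.1 in HA and 3.81, 9.96, 15.8 and 5.74 in SA in unstimulated cells and 24.3, 29.9, 15.5 and 22.5 in WT, 32.5, 68.8, 6.27 and 29.4 in KO, 1.18, 17.9, 8.03 and 19.1 in HA and 0, 28.001, 17.7 and 39.02 in SA after LPS. Near-identical copies of PGAM1 exist, so its counts are uncertain. The HA to WT difference of -2.22 had an interval of -4.30 to -0.14 (adjusted p = 0.18).

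ENO1, enolase, gave 14515, 13892, 14104 and 14982 in WT, 15138, 14921, 12336 and 15411 in KO, 15925, 14504, 13659 and 16976 in HA and 18203, 17930, 12911 and 20544 in SA without LPS, and 13837, 14855, 15120 and 16253 in WT, 14247, 13185, 14622 and 14988 in KO, 15266, 15199, 14944 and 14905 in HA and 8998, 11863, 13898 and 15515 in SA with it. It overlapped between lines throughout, and the LPS difference in SA of -0.48 (-0.77 to -0.19, adjusted p = 0.15) was -0.33 without library 1 (adjusted p = 0.47). ENO2 was at a mean of 6.90. PKM, pyruvate kinase, gave 6904, 6111, 9176 and 7454 in WT, 10549, 6585, 15141 and 8923 in KO, 13389, 12358, 8205 and 9105 in HA and 8301, 5986, 5196 and 7410.03 in SA before LPS and 7099, 5558, 9932 and 6364 in WT, 7597, 7447, 10996 and 8916 in KO, 15358, 7330.4, 8232 and 6714 in HA and 14942, 7024, 6209 and 5931 in SA after it. KO was above WT in all 4 same-numbered pairs in both states, by ratios of 1.08 to 1.65 before LPS and 1.07 to 1.40 after it. The difference before LPS was 0.43 with an adjusted p of 0.59, or 0.008 with the replicate number as a block, and 1 pair (replicate 3, 9176 and 15141) held the largest gap. Without replicate 3 of KO the difference fell to 0.22 (adjusted p = 0.92, no block).

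**Figure D2:**
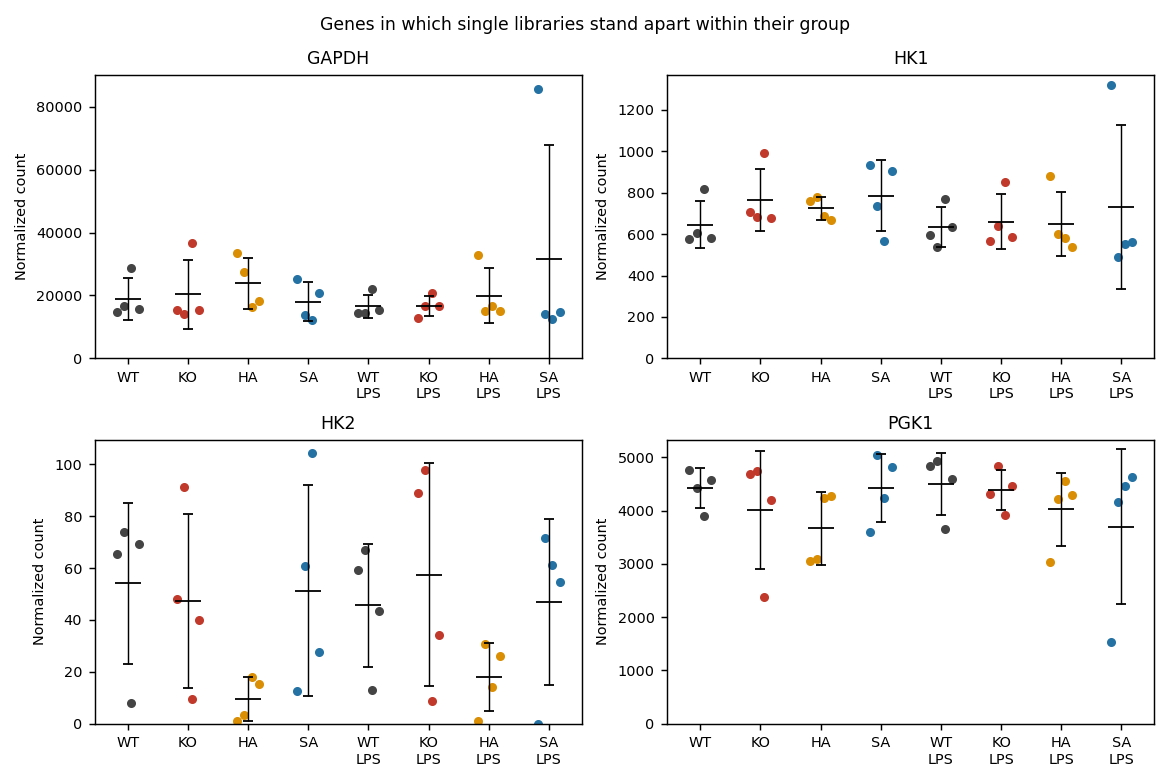
Normalized counts of GAPDH, HK1, HK2 and PGK1 in each library (points), with the group mean and SD (bars, n = 4), for the 8 groups. The libraries highest in GAPDH, up to 85728 in LPS-treated SA cells, are high in HK1 and low in HK2 and PGK1 of the same group.

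These differences within groups ran through the list in 2 opposite ways. The main direction of the differences within groups, taken as the first principal component over genes outside the list, held 52.1% of the within-group variance. In the library highest on it in each group, 11 of the 28 genes (HK1, GPI, PFKL, PFKP, ALDOA, GAPDH, PKM, PGLS, PGD, RPIA and TKT) were the highest of the 4 libraries in at least 7 of the 8 groups, and 8 genes (SLC2A1, HK2, PFKFB3, PGK1, PGAM1, LDHA, PDK1 and RPE) were the lowest in at least 7. Together these were 67.9% of the list, beside 29.2% of all tested genes (13.2% highest and 15.9% lowest). All tested genes were not matched to the list by level, and the sign of the direction was set by GAPDH, a gene counted here. Enzymes of consecutive steps fell on opposite sides, as GAPDH and PGK1 did. The median GC content of the main transcript was 56.6% in the 11 genes and 46.7% in the 8, and 53.8% and 46.5% among all genes of either kind; the part of GC content in this was not tested.

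Lactate dehydrogenase was the place where the lines differed most clearly. The enzyme is a tetramer of A subunits (LDHA, favouring lactate formation) and B subunits (LDHB, favouring pyruvate formation). LDHB, on the minus strand at chr12:21635342-21757857, gave 7878, 7791, 7975 and 6954 in WT, 5813, 6597, 6477 and 5605 in KO, 6204, 5942, 6618 and 5841 in HA and 6556, 7684, 7459.8 and 7765 in SA in unstimulated cells. After LPS it gave 7856, 7841, 7478 and 7263 in WT, 5894, 6313, 5850.1 and 6117 in KO, 6855, 5682, 6514 and 5503 in HA and 8769, 7046, 8041 and 7332 in SA. The 4 KO and 4 HA libraries were below all 4 WT libraries in both states, and the SA libraries overlapped WT.

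Without LPS, LDHB averaged 7649 ± 469.8 in WT, 6123 ± 488 in KO and 6151 ± 347 in HA (SD, n = 4). KO differed from WT by -0.32 ± 0.10 (SE) on the log2 scale, a level of 0.80 times that in WT (adjusted p = 0.058), and HA by -0.31 ± 0.10, likewise 0.80 times (adjusted p = 0.053). After LPS the differences were -0.33 in KO (adjusted p = 0.039) and -0.32 in HA (adjusted p = 0.071). LDHB was the only gene of the 28 whose KO and WT libraries did not overlap, in either state (3.57% of the list), where 12.0% and 13.9% of all genes did not. After LPS 2 of the 28 (7.14%), LDHB and SLC16A1, did not overlap between HA and WT, against 13.5% of all genes.

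The ratio of KO to WT in LDHB was 0.738 to 0.847 over the 4 pairs before LPS and 0.750 to 0.842 after it. With the replicate number as a block among WT and KO libraries, LDHB was called in both states (limma adjusted p = 0.008 and 0.005), in fits that called 9.28% and 12.2% of all genes. SA differed from WT by -0.06 (-0.26 to 0.15) and 0.03 after LPS (-0.17 to 0.23), or -0.03 (-0.23 to 0.18) without the library that stood apart, and KO from HA by -0.01 (-0.21 to 0.19). On the values as deposited, which were scaled separately for each line, the LDHB difference was -0.42 in KO and -0.17 in HA before LPS. After LPS the HA difference ran from -0.39 to -0.16 over the alternative ways of processing.

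LDHA, on the plus strand at chr11:18394560-18408425, gave 4002, 3826, 3117 and 4048 in WT, 3507, 3919.5, 2589 and 3179 in KO, 2179.8, 2565, 2477 and 2744 in HA and 2530.2, 3376, 3905 and 2339 in SA without LPS. With LPS it gave 4211, 4443, 2609 and 3568 in WT, 3263, 3842, 2513 and 3535 in KO, 2119.8, 2754, 2481 and 2832 in HA and 2351, 3940.3, 3766 and 3736 in SA. Every unstimulated HA library was below every WT library, and after LPS the WT value of 2609 was under 2 of the HA values. The difference between HA and WT was -0.59 (-0.97 to -0.20, adjusted p = 0.058) and -0.52 after LPS (-0.91 to -0.13, adjusted p = 0.13). In KO it was -0.19 (-0.58 to 0.20). The ratio of LDHA to LDHB reads averaged 0.493 ± 0.0788 in WT, 0.541 ± 0.0955 in KO, 0.407 ± 0.0539 in HA and 0.412 ± 0.0934 in SA (SD, n = 4), with overlap among all of them.

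**Figure D3:**
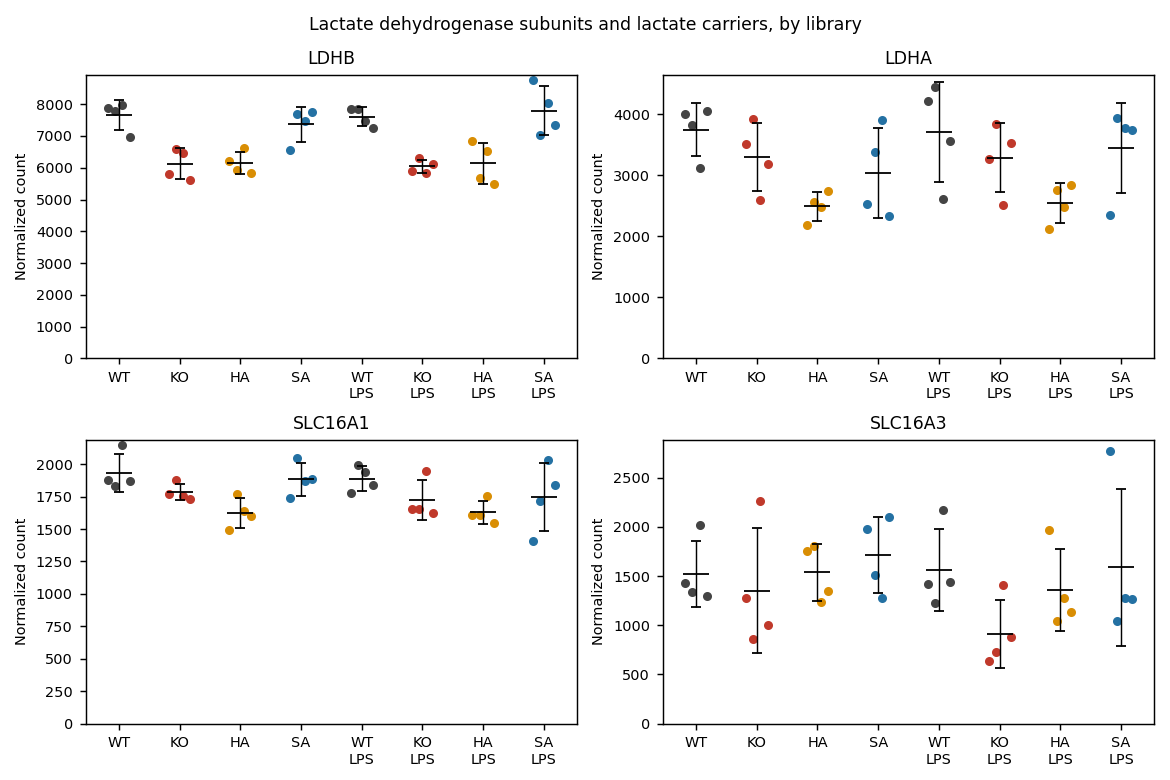
Normalized counts of LDHB, LDHA, SLC16A1 and SLC16A3 in each library (points), with group mean and SD (bars, n = 4). The LDHB points of KO and HA lie below those of WT in both states, and the SLC16A3 points of LPS-treated KO cells include the 2 lowest values, 633 and 729.7.

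Lactate leaves and enters cells through monocarboxylate transporters. SLC16A1 encodes MCT1. It gave 1876, 1835, 2150.1 and 1869 in WT, 1769.8, 1875, 1757 and 1734 in KO, 1491, 1768, 1639.8 and 1602 in HA and 1736, 2049, 1871 and 1882 in SA before LPS, and 1777, 1992, 1937 and 1843 in WT, 1658, 1652, 1950.03 and 1624 in KO, 1612, 1605, 1755 and 1547 in HA and 1405, 1716, 2030.2 and 1841 in SA after it. HA lay below WT without overlap in both states, by -0.25 (-0.46 to -0.04, adjusted p = 0.14) and -0.21 (-0.42 to -0.00, adjusted p = 0.29). On the deposited scale these became -0.10 and -0.06.

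SLC16A3, on the plus strand at chr17:82217934-82261129, encodes MCT4, the exporter typical of strongly glycolytic cells. It gave 1431, 1334, 2018 and 1293 in WT, 1276, 862, 2267 and 1003 in KO, 1756, 1811, 1237 and 1348 in HA and 1978, 1510.2, 1275 and 2097 in SA in unstimulated cells. After LPS it gave 1417, 1223, 2170.03 and 1441 in WT, 633, 729.7, 1407 and 885 in KO, 1969, 1048, 1278 and 1137 in HA and 2774, 1041, 1281 and 1265 in SA. In LPS-treated KO cells 3 values were below all WT values of either state, while the value of 1407 in replicate 3 lay within the WT range of 1223 to 2170. KO averaged 914 ± 345 and WT 1563 ± 416 after LPS (SD, n = 4), a difference of -0.81 ± 0.30 (SE) with an adjusted p of 0.12 that missed the threshold.

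Within pairs the ratio of KO to WT in SLC16A3 after LPS was 0.446, 0.597, 0.649 and 0.614. With the replicate block among WT and KO libraries it was called, at an adjusted p of 1.2e-04. Without LPS the same ratios were 0.891, 0.646, 1.12 and 0.776, and the difference was -0.25 (-0.86 to 0.36). The difference between the 2 states, -0.56, was not past the threshold (adjusted p = 1.00), nor was the change with LPS in KO (-0.53, or an adjusted p of 0.02 with the block). With the block, LDHB and PKM were the called genes of the list before LPS (2 of 28, 7.14%, beside 9.28% of all genes) and LDHB and SLC16A3 after it (7.14%, beside 12.2%).

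**Figure D4:**
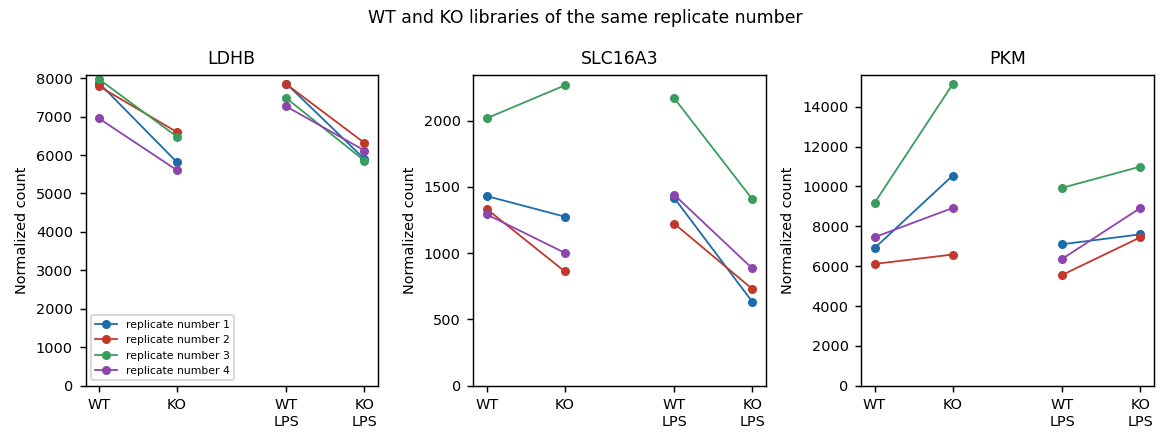
Normalized counts of LDHB, SLC16A3 and PKM in WT and KO libraries, with lines joining libraries of the same replicate number, before and after LPS. All 4 lines fall for LDHB in both states and for SLC16A3 after LPS, and all 4 rise for PKM in both states.

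Pyruvate dehydrogenase kinases inhibit the conversion of pyruvate to acetyl-CoA in mitochondria. PDK1 gave 63.9, 69.6, 52.2 and 61.2 in WT, 52.02, 67.6, 34.3 and 52.2 in KO, 27.8, 25.9, 40.7 and 58.1 in HA and 19.03, 70.6, 73.4 and 43.999 in SA before LPS, and 68.3, 81.8, 39.2 and 41.8 in WT, 70.97, 60.3, 28.8 and 55.6 in KO, 28.2, 70.9, 45.2 and 69.5 in HA and 3.52, 40.4, 77.7 and 59.8 in SA after it. PDK3 gave 40.6, 38.2, 63.6 and 49.7 in WT, 46.8, 40.8, 39.7 and 67.2 in KO, 53.6, 51.01, 51.4 and 78.7 in HA and 57.1, 53.4, 40.01 and 70.8 in SA before LPS, and 44.01, 41.3, 48.8 and 51.4 in WT, 46.9, 36.2, 67.7 and 46.1 in KO, 121, 47.03, 47.2 and 47.8 in HA and 56.4, 44.3, 34.1 and 41.6 in SA after it. Neither kinase separated any 2 lines, and the intervals of PDK1 were wide (-1.46 to 0.88 for KO and -1.92 to 0.42 for HA against WT).

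In the oxidative arm of the pentose phosphate pathway PGLS hydrolyses the lactone and PGD, 6-phosphogluconate dehydrogenase, yields NADPH. PGLS gave 550.2, 576, 752 and 506 in WT, 546, 531, 811 and 465 in KO, 901, 711, 526 and 551 in HA and 692, 437, 463 and 549.99 in SA before LPS, and 513, 522, 559 and 485 in WT, 518, 557, 662 and 490.002 in KO, 906, 522, 558 and 575 in HA and 2108, 541, 447 and 528 in SA after it. PGD gave 1159.9, 1101, 1947 and 1371 in WT, 1268, 1043, 1964 and 1374 in KO, 2427, 2092, 1834 and 1855 in HA and 1893, 1581, 1121 and 2034 in SA before LPS, and 1241, 1255, 1569.5 and 1345 in WT, 1193, 1067, 1805 and 1427 in KO, 2613, 1375, 1927 and 1652 in HA and 1859.8, 1135, 1317 and 1229 in SA after it. PGLS overlapped in all comparisons. In PGD 3 of 4 WT libraries lay below all HA libraries without LPS, the exception being 1947 in replicate 3. HA exceeded WT by 0.58 (0.13 to 1.04, adjusted p = 0.11), and KO differed from WT by 0.02 (-0.44 to 0.48).

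The non-oxidative arm rearranges pentoses. RPIA, ribose 5-phosphate isomerase, gave 504, 442, 671 and 356 in WT, 423, 405, 927 and 341 in KO, 704, 703, 490.4 and 387 in HA and 653, 302, 337 and 390.3 in SA before LPS, and 492, 397, 624 and 394 in WT, 356, 508, 528 and 378 in KO, 828, 308, 469 and 343 in HA and 1725, 491, 329 and 399 in SA after it. RPE, the epimerase acting on the same substrate, gave 492, 451, 284 and 477 in WT, 399, 482, 260.4 and 382 in KO, 255, 225, 214 and 264 in HA and 240.5, 315, 395 and 252 in SA before LPS, and 478, 535, 251 and 424 in WT, 473, 504, 189 and 438 in KO, 271, 284, 278 and 283 in HA and 159, 445, 399 and 497 in SA after it. RPIA overlapped everywhere, while all 4 HA values of RPE were under all WT values without LPS. That difference was -0.80 (-1.43 to -0.17, adjusted p = 0.11), and -0.54 after LPS (-1.17 to 0.09). RPE was also the only gene of the list whose LPS-treated libraries did not overlap with the untreated ones in a line, in HA (271 or more against 264 or less, with 3.49% of all genes not overlapping), a change of 0.22 (-0.41 to 0.85).

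Transketolase (TKT) and transaldolase (TALDO1) link the pentoses back to glycolysis. TKT gave 2218, 2239, 3578 and 2305 in WT, 2723, 1749, 4021 and 2133 in KO, 4031, 3814, 3189 and 2602 in HA and 3043, 1601, 1611 and 2363 in SA before LPS, and 2358, 1716, 3138 and 2020.4 in WT, 1680.4, 1914, 3121 and 2401 in KO, 3934, 2081, 2773 and 2056 in HA and 4578, 2258, 1626 and 1824 in SA after it. TALDO1 gave 4911, 4853, 4700.1 and 4488 in WT, 5746, 4651, 3293 and 4656 in KO, 3569.7, 4262, 4739 and 4809.9 in HA and 4374, 5367, 4488 and 5401 in SA before LPS, and 4888, 4851, 4794 and 4490.1 in WT, 4194, 4688, 4754 and 4919.9 in KO, 3826, 4813, 5049 and 4336 in HA and 1620.3, 4304, 4968 and 4389 in SA after it. Neither separated the lines. TALDO1 was at 1620 in library 1 of LPS-treated SA cells and between 3293 and 5746 in the other 31.

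Over the whole list KO differed from WT in few genes at an unadjusted p. Of the 28 genes 13 were higher and 15 lower in KO without LPS, the median log2 difference was -0.02 (-0.03 over all genes), and 1 gene (3.57%) had an unadjusted p under 0.05, beside 14.3% of all genes. After LPS 12 were higher and 16 lower, with a median of -0.02 (-0.01 over all genes), and 2 genes (7.14%) had such a p, beside 17.2%. The 95% interval lay within a 2-fold difference either way for 22 genes before LPS and for 21 after it, and within 0.5 on the log2 scale for 5 and 5.

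**Figure D5:**
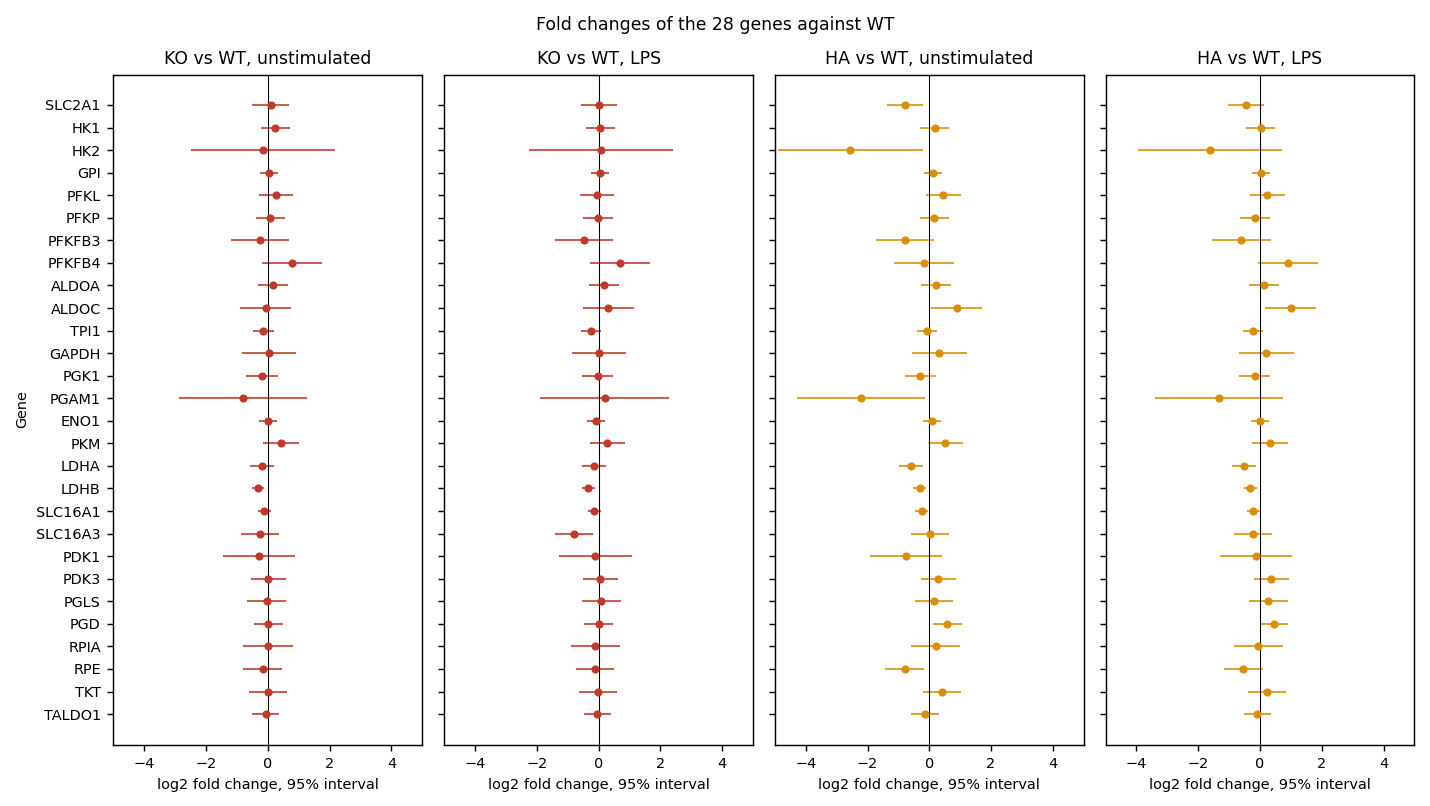
log2 fold changes of the 28 genes (rows) in KO and HA against WT before and after LPS, with 95% intervals from limma. The intervals of LDHB are among the narrowest and exclude 0 in all 4 panels, those of HK2 and PGAM1 span several units, and LDHA lies below 0 in both HA panels.

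In HA against WT without LPS 15 genes were higher and 13 lower, with a median of 0.05 (-0.02 over all genes), and 9 genes (32.1%) had an unadjusted p under 0.05, beside 24.6% of all genes. These were SLC2A1, HK2, ALDOC, PGAM1, LDHA, LDHB, SLC16A1, PGD and RPE, and 7 of them were lower in HA. After LPS 4 genes (14.3%) had such a p, ALDOC, LDHA, LDHB and SLC16A1, beside 16.7% of all genes. Without library 1 of LPS-treated SA cells 10 genes had one before LPS, PKM being added, beside 32.3% of all genes. After LPS it was 6 genes, with PGD and RPE added, beside 21.8%. Mitochondrially encoded genes took 6.07% to 8.11% of reads in unstimulated HA libraries against 3.42% to 6.62% in WT. With the level of the mitochondrial MT-RNR2 as a covariate, 0 genes of the list were called in HA against WT. The fit without the covariate also called 0, so this count cannot show what the covariate does to the HA differences.

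In SA against WT no gene had an unadjusted p under 0.05 in either state, where 3.57% of all genes did before LPS and 5.20% after it. Without LPS 10 genes were higher and 18 lower in SA. On the values as deposited, where the median of all genes lay 0.24 above WT before LPS and 0.25 after it, 6 genes had such a p before LPS (HK1, TPI1, ENO1, LDHB, SLC16A1 and PGD, beside 17.8% of all genes) and 2 after it (LDHB and PGLS, beside 18.04%), all higher in SA. On the shared scale without library 1 of LPS-treated SA cells, ENO1 and TPI1 had one before LPS (0.26 and 0.29) and 0 genes after it. PGLS was at 2108 in that library and at 447 to 541 in the rest of its group. Its difference from WT after LPS on the shared scale was 0.47 with that library and -0.04 without it. With all libraries the smallest adjusted p before LPS was 1.00, and 20 of the 28 intervals lay within a 2-fold difference. KO and HA differed with an unadjusted p under 0.05 in 6 genes (21.4%, beside 10.4% of all genes) before LPS and in 0 after it, beside 10.6%. These counts also changed without library 1 of LPS-treated SA cells, to 7 genes before LPS (beside 14.9% of all genes). After LPS they became 3 (LDHA, SLC16A3 and PGD, beside 15.1%).

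After 3 h of LPS, in WT, KO and HA 0 of the 28 genes had an unadjusted p under 0.05, beside 1.58%, 5.42% and 4.77% of all genes. In SA 3 genes had one, ENO1, TPI1 and TALDO1, all lower, beside 9.83% of all genes. This list rests on library 1 of LPS-treated SA cells: without it the genes were ENO1 (-0.33), HK1 (-0.53) and RPE, which was higher (0.59), and TALDO1 was at -0.10. Untreated and LPS-treated libraries of the same number also deviated together in WT and in KO. With the replicate block among WT and KO libraries SLC2A1 had an unadjusted p under 0.05 in WT (-0.30, adjusted p = 0.66), beside 4.72% of all genes. In KO 4 genes had one, beside 18.2%: SLC2A1 (-0.37), SLC16A3 (-0.53) and HK1 (-0.21) were lower and PGAM1 (1.12) higher, with adjusted p of 0.02 or more. Differences in the LPS response between a line and WT were called for 0 of the 28 genes. The median LPS difference over the list was -0.03 in WT, -0.05 in KO, -0.03 in HA and -0.04 in SA, or -0.07 in SA without that library.

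Other genes of sugar and pyruvate metabolism were counted in the same way. Of 20 tested related glycolytic and sugar enzymes, 1 was called in any comparison: SLC2A6, a lysosomal sugar transporter, rose with LPS in KO from 442 ± 40.4 to 808 ± 26.1 (log2 0.87, adjusted p = 8.9e-06) and in HA from 454 ± 72.6 to 719.5 ± 38.1 (0.68, adjusted p = 4.8e-04), with 0.53 in WT (adjusted p = 0.016) and 0.52 in SA (adjusted p = 0.013). None of 12 genes for the entry of pyruvate into mitochondria or its conversion there, and none of 13 regulators of glycolysis, was called. Of 19 hypoxia-responsive genes outside glycolysis, MXI1, a MYC antagonist, was lower in KO after LPS (86.8 ± 14.3 against 183 ± 37.9, log2 -1.06, adjusted p = 9.4e-04). Of 14 NRF2 target genes, SLC7A11, the cystine transporter, was lower in KO (249 ± 68.8) and HA (307 ± 134) than in WT (796 ± 225), and after LPS likewise, with log2 differences of -1.44 to -1.80 (adjusted p = 3.5e-04 to 0.006).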

How the data were processed

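RNA of 32 THP-1 libraries (8 groups of 4) had been sequenced with a 3′ mRNA kit by the authors. They deposited DESeq2 normalized counts, per the file headers and the submitters' notes (build GRCh38), in 8 tables of 60199 rows, of which 92 are spike-ins that held 1 read in all. These normalized counts carry a scale set separately for each line. In each library 100.000% of values were whole multiples (within 0.05) of its smallest value, so reads were recovered, and divided by median-of-ratios factors computed over all 32 libraries jointly. Measured from the joint scale, the deposited scale shifted lines by -0.10 (KO), 0.15 (HA) and 0.26 (SA) in log2 units relative to WT. Tests assume most genes do not change.

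The 12406 genes whose normalized counts averaged 10 or more entered the tests, as log2(value + 1) with limma 3.58.1 in R 4.3.3, with 1 mean per group, a mean-variance trend, Benjamini-Hochberg adjustment and a threshold of 0.01. Intervals are 95%. Levels limit precision: with these depths, a gene near the minimum has few reads. In a test on simulated data with the KO against WT comparison, 27 of 100 genes changed 2-fold and 76 of 100 changed 4-fold were recovered among 12406, with 0 false calls. Recovery in the real libraries, where differences within groups ran through many genes together, was not tested, nor was their rate of false calls. Replicate numbers were treated as pairing WT with KO libraries. Same-numbered libraries deviated together in each of 4 pairs (correlation of deviations at least 0.33 without LPS and 0.18 with it). Differently numbered ones reached 0.37 and 0.43, and the same number was the best match for 4 and 3 KO libraries. Same-numbered untreated and LPS-treated libraries also deviated together in WT (at least 0.26) and KO (at least 0.12), where differently numbered ones reached 0.33 and 0.34. In every comparison with HA or SA at least 1 same-numbered pair had a correlation below 0. Between untreated and LPS-treated SA cells the 4 correlations were 0.49, 0.30, 0.35 and -0.14.

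All members above the minimum were described, with all their library values where a member was called or led its role group in a comparison, and at most 3 genes were named from each related list. Members and lists were chosen with earlier results of these data known. Some of the cell type markers examined are not reported here. Count-based tests on the recovered reads were planned and not run. Positions are from GENCODE 44 and promoters from RefSeq. Alternatives were other scales, pseudocounts (0.5 and 5), filters (none, or a mean of 50), sample sets, the replicate block and single libraries left out. Alternatives chosen after seeing the data were the block among WT and KO libraries, leaving out 8 libraries by the main within-group direction or by MT-RNR2 level, and MT-RNR2 as a covariate. The labels give LPS at 100 ng/ml and the study's methods another dose.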

Additional observations from a re-analysis of the deposited data

Results flagged for a closer look

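The spread within groups was examined gene by gene: a library was picked out where its gap to the nearest of the other 3 libraries took most of the group's range (Dixon's criterion at 95%). Of 224 sets of 4 libraries (28 genes in 8 groups) 32 were picked out (14.3%), where chance picks out about 1 in 20, and 30 of the 32 involved the library that was highest on the main within-group direction. Genes of 1 library are not independent.

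Library 1 of LPS-treated SA cells gave 11 of them. It was the highest of its group in GAPDH (85728), PKM (14942), ALDOA (11827), SLC16A3 (2774), PGLS (2108), RPIA (1725), HK1 (1321) and PFKL (1144). It was the lowest in LDHA (2351), PGK1 (1540) and PFKFB3 (127).

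Library 3 of unstimulated WT cells was highest in GAPDH (28728), ALDOA (7618), TKT (3578), SLC16A1 (2150), PFKP (1348) and HK1 (817), and lowest in HK2 (7.95). Library 3 of unstimulated KO cells was highest in GAPDH (36639), ALDOA (10651), HK1 (991) and RPIA (927), and lowest in ENO1 (12336). In LPS-treated KO cells library 3 was highest in SLC16A1 (1950) and PFKP (1544) and lowest in PFKFB3 (97.8).

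Library 3 of LPS-treated WT cells was highest in GAPDH (22050), and library 1 in PFKFB4 (28.8). Library 1 of LPS-treated HA cells was highest in GAPDH (32984), PGLS (906) and PDK3 (121). Library 4 of unstimulated HA cells was highest in PDK3 (78.7).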

How the results depend on the processing

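Of 45 alternatives, 32 leave out 1 library each, and with each of these 0 genes of the list were called in any of the 15 comparisons. On the values as deposited 1 gene (LDHB) was called in KO against WT in each state (3.57% of the list, beside 2.97% of all genes, and 3.83% after LPS). The replicate block within the groups compared called 1 (SLC16A3) in KO against WT after LPS (10.7% of all genes), and the block among WT and KO libraries, chosen after seeing the data, called 2 in each state (7.14%, beside 9.28% and 12.2% of all genes); the block over all 32 libraries changed no call. Leaving out the library highest on the main within-group direction in each group, also chosen after seeing the data, called 8 genes in HA against WT (SLC2A1, LDHA, PFKL, PGD, HK2, PFKFB3, PGAM1 and RPE; 28.6% of the list, beside 17.6% of all genes), 2 after LPS (LDHA and RPE, 7.14% beside 4.72%), 5 in KO against HA (17.9% beside 8.18%), 1 after LPS (RPE, 3.57% beside 1.95%) and 1 in KO against WT after LPS (SLC16A3, beside 868 of 12406 genes). That setting removes spread by its construction, so its p-values are too small. With MT-RNR2 level as a covariate, chosen after seeing the data, 1 gene was called in KO against WT after LPS (SLC16A3, -1.10, adjusted p = 0.007, beside 5.01% of all genes), and without the highest MT-RNR2 library of each group 0 were called. Of the 33 fold changes on the list with an unadjusted p under 0.05 here, or with a call in at least 1 alternative, 0 turned their sign in any alternative. The signs of the others were not followed. Sizes moved more: in HA against WT without LPS they ran from -3.3 to -1.06 for HK2 and from -1.05 to -0.21 for PFKFB3. For RPE they ran from -1.02 to -0.44, and for PFKFB3 in KO against HA without LPS from 0.03 to 1.03. LDHB in KO against WT without LPS ran from -0.42 to -0.28. As the 33 were picked by p or call and the alternatives refit the same libraries, signs that hold add no separate support.

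Over all genes, counts of calls ranged over the alternatives from 179 to 1151 in KO against WT (360 here) and 300 to 1509 after LPS (430), from 8 to 2188 in HA against WT (313) and 7 to 585 after LPS (250), from 0 to 1015 in KO against HA (28) and 0 to 242 after LPS (1). For the LPS response the ranges were 14 to 126 in WT cells (31), 21 to 231 in KO cells (71), 33 to 81 in HA cells (50) and 3 to 72 in SA cells (61). The planned count-based fits on the recovered reads were not run. The low counts of HK2 and PGAM1 gave 95% intervals reaching 2.33 and 2.08 on the log2 scale to either side of a difference between groups.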
